A study of Mus musculus with 36 samples.

Results

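The 39 genes described here make the lysosomal part of the macrophage transcriptome: 11 proteases (the cathepsins and Tpp1), 8 glycosidases, 8 genes for lipid handling including progranulin, 5 membrane proteins, 5 subunits of the proton pump and the transcription factors Tfeb and Tfe3. The rule that lists them names genes and uses no measured value, though the list was drawn up with earlier results of these data known. All 39 were found among the 54232 gene identifiers counted in every library, and all 39 were among the 12957 genes that passed the filter on low counts. RNA was sequenced in 36 libraries from mouse macrophages (BMDM) grown from marrow over 5 days in 20 ng/mL of the growth factor M-CSF. The genotype labels read NOS1 KO, for the neuronal nitric oxide synthase gene, or WT, while the title of the series names SOCS1, a different gene. In the 6 libraries numbered 6 below, the genotype label has BMDM before these words, and they were grouped with the others. The strain of the WT cells is written C65BL6. Cells of either label were left untreated (control) or received lipopolysaccharide (LPS, an activator of macrophages from the outer membrane of bacteria) at 100 ng/mL for 2 h or 8 h. This gave 6 groups of 6 libraries: KO-labelled control, KO-labelled LPS 2 h, KO-labelled LPS 8 h, WT-labelled control, WT-labelled LPS 2 h and WT-labelled LPS 8 h. The labels give no age, sex, animal or culture for a library, so each p-value reflects the scatter among libraries, part or all of which could be technical.

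Lysosomes are acidified organelles in which hydrolases break down proteins, glycans and lipids taken up by the cell or delivered by autophagy. The vacuolar ATPase pumps in protons, membrane proteins such as LAMP1 and LAMP2 protect and organise the limiting membrane, and channels and carriers release ions and products. TFEB and TFE3 are related transcription factors that are held in the cytoplasm by mTORC1 when nutrients are plentiful and that bind E-box sites, the CLEAR elements, in front of many lysosomal genes when they enter the nucleus. In macrophages these genes serve the digestion of engulfed material and the processing of antigens.

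Library totals ran from 8953489 to 18482551 counts. The summed level of 8 macrophage markers lay between 12560 and 22410 CPM (counts scaled to the size of the library), and the T and NK cell markers summed to less than 1 CPM in each. The targeted gene went against its label: Nos1 summed to 720 counts over the KO-labelled libraries (10 to 83 each) and to 21 over the WT-labelled libraries (0 to 8 each). Socs1, the gene of the series title, had overlapping levels under both labels at each time. It had 0.475 to 2.06 CPM in KO-labelled control, 6.87 to 29.7 CPM at 2 h and 68.6 to 95.8 CPM at 8 h. WT-labelled Socs1 had 1.02 to 1.53 CPM in control, 11.1 to 29.9 CPM at 2 h and 63.4 to 90.9 CPM at 8 h. The labels do not say which exons were deleted, so the groups are called by their labels throughout and every KO and WT direction below is one between labels. Skeletal muscle markers summed to 100 CPM or more in 4 WT-labelled LPS libraries, up to 445 CPM at 2 h and 3558 CPM at 8 h, against at most 46.0 CPM in KO-labelled libraries. Without these 4 libraries the counts of called members given below for WT-labelled cells became 8 at 2 h and 20 at 8 h. Of all genes, 32.1% and 67.3% passed in that fit. Of the 39 genes, 15 overlap another annotated gene, among them Ctsc, Ctsz, Lamp1, Npc1, Grn and Atp6v1b2, and whether the counting used strand is not given in the sources used here. Cd63 shares 98.0% of 858 bases with its pseudogene Cd63-ps, which held 652 counts, against 264278 for Cd63. Npc1 shares 323 bases with Rmc1 (17953 counts, against 117614 for Npc1). Ctsa shares 316 bases with Pltp (49431 counts, against 507809 for Ctsa). Ctsb shares 774 bases with Fdft1, Ctsd 671 with Gm49369 (0 counts), Hexa 255 with Tmem202 and Ctsa 297 with Neurl2. How reads from shared stretches were counted is not given in the sources used here. Within every group the first principal component of all genes, with 34.6% of the variance left after removing group means, split the libraries into 3 and 3. The split is on no label, and the sides are called set A (the libraries numbered 1, 2 and 6) and set B (3, 4 and 5). Libraries of set B were the most alike: the chi-square per gene between libraries of a group had a median of 3.46 within set B, 16 within set A and 52.7 across the sets, where sampling noise alone gives a value near 1.

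The promoters of the module were searched for the core of the CLEAR element, the sequence that TFEB and TFE3 are known to bind. RefSeq promoters (build GRCm38.p6, 250 bases before to 50 bases after the start site) were given for 31 of the 39 genes. Ctsb, Ctse, Ctsh, Npc1, Asah1, Atp6v0d2, Atp6v1b2 and Atp6v1h had none in the table. TCACGTG, searched on both strands, was found for 10 of these 31 genes (32.3%) and in 3.77% of all 32851 promoters of the same length. Its palindromic extension TCACGTGA, which contains it, was found for 6 genes (19.4%) and in 0.974% of all promoters. The shorter E-box CACGTG, contained in both, was found for 11 genes (35.5%), Ctsl being the one added, and in 7.15% of all promoters. The member shares count genes with a match in any listed promoter, and the shares of all count promoters. These shares are therefore not on the same basis. The lines below print 30 bases around the match, 5′ to 3′ on the gene's strand, for the 6 genes with the 8-base form and for Lamp1 as an example of the 7-base form; capitals mark the match.

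Atp6v0d1 (GRCm38.p6 chr8:105566050-105566079, minus strand): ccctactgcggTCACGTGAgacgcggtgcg
Atp6v1a (GRCm38.p6 chr16:44139373-44139402, minus strand): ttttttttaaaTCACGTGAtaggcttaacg
Ctsa (GRCm38.p6 chr2:164833749-164833778, plus strand): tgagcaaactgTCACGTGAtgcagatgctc
Ctsd (GRCm38.p6 chr7:142387908-142387937, minus strand): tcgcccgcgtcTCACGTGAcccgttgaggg
Gla (GRCm38.p6 chrX:134601215-134601244, minus strand): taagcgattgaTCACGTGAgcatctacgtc
Mcoln1 (GRCm38.p6 chr8:3500462-3500491, plus strand): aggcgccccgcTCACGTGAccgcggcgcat
Lamp1 (GRCm38.p6 chr8:13159088-13159117, plus strand): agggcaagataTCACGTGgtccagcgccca

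Gaa, Glb1 and Naglu held the 7-base form as well. A match describes the letters in the window and is no evidence of binding.

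Levels between genes were compared as CPM per kilobase of a principal transcript. In WT-labelled control libraries Psap, the precursor of the saposins that present sphingolipids to their hydrolases, was highest at 4348 CPM per kb, followed by Ctsb at 3657, Ctsd at 3021 and Ctss at 1444 CPM per kb. The order depends on the transcript chosen, 4743 bases long for Ctsb and 2657 for Psap. Without division by length, Ctsb averaged 17350 CPM and Psap 11550 CPM there. Tfeb stood at 15.7 CPM per kb, close to the acid sphingomyelinase gene Smpd1 at 15.4 CPM per kb, and Tfe3 at 33.1 CPM per kb. Ctsk, the collagen-degrading protease of osteoclasts, had 6.54 CPM per kb, and Ctse, an aspartic protease of endosomes, 0.854 CPM per kb. Proteases thus stood near both ends of the order, and both factors in its lower part. Together the 39 genes took a median of 7.62% of all counts in KO-labelled control, 6.75% at 2 h and 5.48% at 8 h, and 7.41% in WT-labelled control, 6.60% at 2 h and 5.31% at 8 h. On the TMM scale explained below the order was the reverse. The summed level had a median of 59900 CPM in KO-labelled control, 63910 CPM at 2 h and 75680 CPM at 8 h. It was 57420 CPM in WT-labelled control, 61990 CPM at 2 h and 68620 CPM at 8 h. The 4 most abundant members carried 62.4 to 66.6% of the members' counts.

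Library scaling bears on every direction given here. Levels were scaled by the trimmed mean of M-values (TMM), under which the median log2 fold change of all genes at 8 h was -0.058 in KO-labelled and -0.064 in WT-labelled cells. Scaling by library totals alone moved these medians to -0.88 and -0.83, and those at 2 h to -0.31 and -0.32. It also moved the share of higher calls at 8 h to 19.5%, against 48.5% with TMM, in KO-labelled cells, and to 19.9%, against 48.0%, in WT-labelled cells; at 2 h the shares were 20.3% against 53.5% and 20.7% against 53.4%. Between 8 h and 2 h they were 21.9% against 48.3% in KO-labelled and 22.3% against 47.8% in WT-labelled cells. Set against the median of all genes, each of the 59 member calls against control, counted per gene and contrast, lay on the same side under both scalings. A change of scaling shifts all genes of a contrast by nearly the same amount, so this agreement was fixed in advance. It cannot tell which sign is right. Below, "rose" and "fell" are used on the TMM scale, and the value with library totals alone is given where its sign is the opposite.

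LPS changed part of the module, mainly at 8 h, and in both directions. At 2 h, 7 of the 39 genes passed an adjusted p below 0.05 in KO-labelled cells (4 higher, 3 lower) and 9 in WT-labelled cells (8 higher, 1 lower). Of all genes tested, 35.3% passed in KO-labelled cells (18.9% higher, 16.4% lower) and 37.9% in WT-labelled cells (20.3% higher, 17.7% lower). At 8 h, 22 members passed in KO-labelled cells (16 higher, 6 lower) and 21 in WT-labelled cells (14 higher, 7 lower), beside 72.1% of all genes (34.9% higher, 37.2% lower) and 71.2% (34.2% higher, 37.0% lower). With library totals alone, 10 of the 16 rises and 8 of the 14 had a negative sign. Between 8 h and 2 h, 16 members passed in either label: 11 higher and 5 lower in KO-labelled cells, beside 65.2% of all genes (31.5% higher, 33.7% lower), and 10 higher and 6 lower in WT-labelled cells, beside 62.8% (30.0% higher, 32.8% lower). The median log2 fold change of the 39 at 8 h was 0.14 in KO-labelled and 0.13 in WT-labelled cells. The 6 libraries at 8 h and the 6 controls did not overlap for 16 members in KO-labelled cells (11 higher, 5 lower) and for 14 in WT-labelled cells (12 higher, 2 lower). Of all genes tested, 52.5% did not overlap in KO-labelled cells (27.0% higher, 25.6% lower) and 52.3% in WT-labelled cells (26.3% higher, 25.9% lower).

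**Figure D1:**
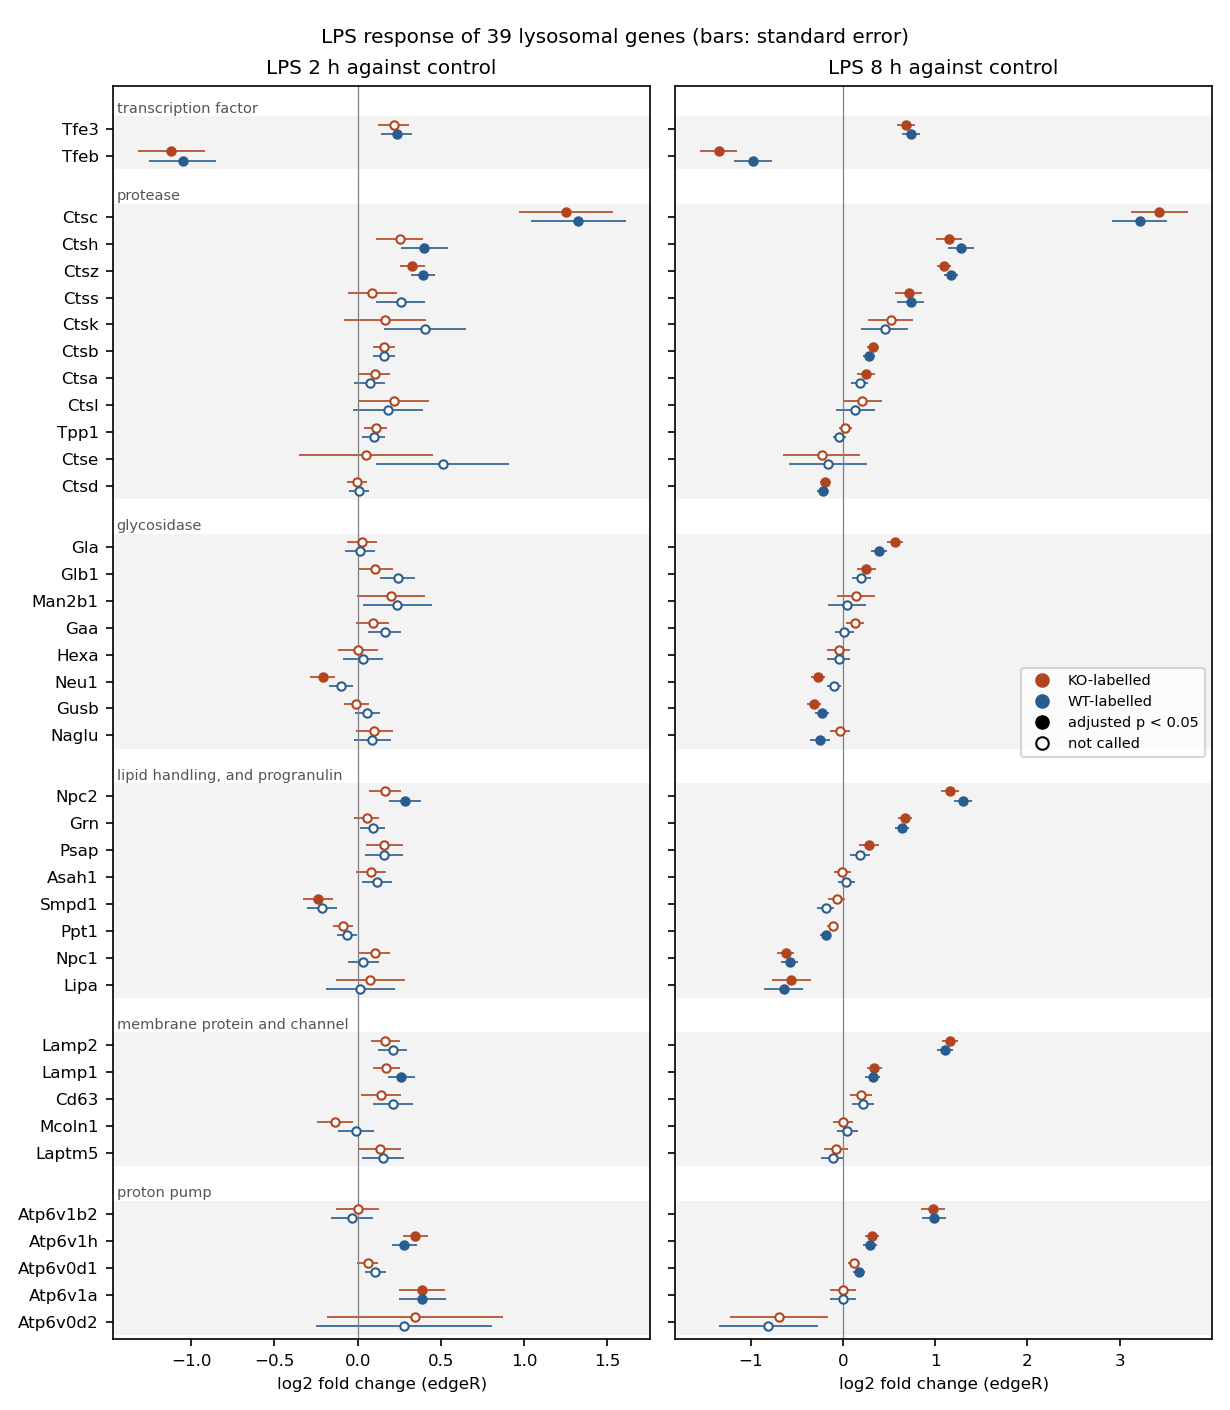
Log2 fold change (x axis, edgeR, bars are standard errors) of the 39 genes by role (rows) at 2 h and 8 h of LPS against control; KO-labelled in red above WT-labelled in blue, filled where the adjusted p is below 0.05. At 8 h Ctsc reaches 3.43 and 3.21 and Tfeb -1.35 and -0.98, on the TMM scale; with library totals alone, 10 of the 16 rises in KO-labelled and 8 of the 14 in WT-labelled cells at 8 h, and 4 of the 8 in WT-labelled cells at 2 h, are negative.

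The factors of the module moved in opposite directions on the TMM scale, and with library totals alone the sign of Tfe3 turned. Tfeb (chr17:47737030-47792419, plus strand) fell within 2 h and stayed low. Tfeb had a lowest, median and highest level of 28.5, 32.8 and 47.4 CPM in KO-labelled control libraries, 12.4, 16.3 and 21.4 CPM at 2 h and 9.18, 13.5 and 22.5 CPM at 8 h. WT-labelled Tfeb had 27.4, 34.2 and 50.3 CPM in control, 15.0, 15.4 and 25.2 CPM at 2 h and 13.4, 17.5 and 27.4 CPM at 8 h. All 6 libraries at 2 h lay below all 6 controls under either label; at 8 h the groups were separate in KO-labelled cells, and the highest WT-labelled library at 8 h reached just past the lowest control. The log2 fold change was -1.12 ± 0.20 (SE; adjusted p = 2.98e-05) at 2 h and -1.35 ± 0.21 (adjusted p = 5.01e-07) at 8 h in KO-labelled cells, and -1.05 ± 0.20 (adjusted p = 6.33e-05) and -0.98 ± 0.20 (adjusted p = 6.69e-05) in WT-labelled cells. Between 8 h and 2 h Tfeb did not pass the test under either label. Tfe3 (chrX:7762560-7775202, plus strand) rose at 8 h under both labels. Tfe3 had a lowest, median and highest level of 92.4, 103 and 123 CPM in KO-labelled control libraries, 105, 119 and 145 CPM at 2 h and 161, 170 and 184 CPM at 8 h. WT-labelled Tfe3 had 95.4, 111 and 119 CPM in control, 109, 121 and 165 CPM at 2 h and 170, 180 and 201 CPM at 8 h. At 8 h every library lay above every control of its label, while at 2 h the groups overlapped. Its log2 fold change at 8 h was 0.68 ± 0.10 (adjusted p = 8.52e-08) in KO-labelled and 0.74 ± 0.10 (adjusted p = 1.91e-08) in WT-labelled cells, though -0.14 and -0.032 with library totals alone. At 2 h it was 0.22 ± 0.094 (adjusted p = 0.0731) in KO-labelled and 0.24 ± 0.094 (adjusted p = 0.0480; -0.075 with library totals alone) in WT-labelled cells. Per kilobase of transcript, Tfe3 and Tfeb averaged 51.9 and 6.21 CPM per kb at 8 h, against 32.3 and 15.8 CPM per kb in control, in KO-labelled cells, and 55.2 and 7.94, against 33.1 and 15.7 CPM per kb, in WT-labelled cells. The control level of Tfeb also followed the library sets, with 35.4 to 47.4 CPM in set A and 28.5 to 30.1 CPM in set B of KO-labelled cells and 36.8 to 50.3 and 27.4 to 31.7 CPM in WT-labelled cells.

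Among the 11 proteases, 6 rose and 1 fell at 8 h in KO-labelled cells, and 5 rose and 1 fell in WT-labelled cells; with library totals alone the rises of Ctsb and Ctss, and of Ctsa in KO-labelled cells, had a negative sign. The largest change of the module was that of Ctsc (cathepsin C or dipeptidyl peptidase 1, which activates the serine proteases of granules; chr7:88278085-88310888, plus strand). Ctsc had a lowest, median and highest level of 87.6, 152 and 241 CPM in KO-labelled control libraries, 248, 389.4 and 489 CPM at 2 h and 926, 1773 and 2300 CPM at 8 h. WT-labelled Ctsc had 80.8, 147 and 229 CPM in control, 192, 417.8 and 441 CPM at 2 h and 962, 1492 and 1626 CPM at 8 h. The 8 h libraries lay far above the controls, and at 2 h 1 WT-labelled library, at 192 CPM, fell among the control values. The controls themselves were in 2 tiers, 87.6 to 106 CPM in set A and 199 to 241 CPM in set B of KO-labelled cells and 80.8 to 103 and 190 to 229 CPM in WT-labelled cells. The log2 fold change was 1.25 ± 0.28 (adjusted p = 5.40e-04) at 2 h and 3.43 ± 0.31 (adjusted p = 4.45e-12), or 10.8-fold, at 8 h in KO-labelled cells, and 1.33 ± 0.28 (adjusted p = 2.55e-04) and 3.21 ± 0.30 (adjusted p = 1.78e-11), or 9.28-fold, in WT-labelled cells. Per kilobase, Ctsc averaged 689 CPM per kb at 8 h, against 63.9 CPM per kb in control, in KO-labelled cells, and 566 CPM per kb at 8 h, against 61.0 CPM per kb in control, in WT-labelled cells; in WT-labelled control it held rank 27 of the 39.

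Ctsz, the carboxypeptidase cathepsin Z (chr2:174427493-174439039, minus strand), and Ctsh, the aminopeptidase cathepsin H (chr9:90054152-90076089, plus strand), both rose at 8 h. Ctsz had a lowest, median and highest level of 841, 1017 and 1216 CPM in KO-labelled control libraries, 1199, 1298 and 1419 CPM at 2 h and 1910, 2262 and 2343 CPM at 8 h. WT-labelled Ctsz had 879, 979 and 1028 CPM in control, 1196, 1273 and 1343 CPM at 2 h and 1974, 2187 and 2358 CPM at 8 h. Ctsh had a lowest, median and highest level of 84.2, 141 and 161 CPM in KO-labelled control libraries, 118, 157 and 189 CPM at 2 h and 238, 289 and 324 CPM at 8 h. WT-labelled Ctsh had 82.2, 111 and 120 CPM in control, 105, 137 and 173 CPM at 2 h and 241, 253 and 285 CPM at 8 h. All 8 h libraries of either gene exceeded all controls of their label, and for Ctsz the WT-labelled libraries were already separate at 2 h. At 8 h the log2 fold change of Ctsz was 1.09 ± 0.075 (adjusted p = 5.70e-15) in KO-labelled and 1.17 ± 0.075 (adjusted p = 9.33e-16) in WT-labelled cells, and at 2 h it was 0.33 ± 0.074 (adjusted p = 5.56e-04) in KO-labelled and 0.39 ± 0.074 (adjusted p = 5.31e-05) in WT-labelled cells. Ctsh had 1.15 ± 0.14 (adjusted p = 9.22e-09) in KO-labelled and 1.28 ± 0.14 (adjusted p = 9.09e-10) in WT-labelled cells at 8 h. At 2 h its value was 0.25 ± 0.14 (adjusted p = 0.173) in KO-labelled and 0.40 ± 0.14 (adjusted p = 0.0230) in WT-labelled cells, and the first of these did not pass.

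Ctss, the cysteine protease that trims the invariant chain of MHC class II, had lowest, median and highest levels of 1771, 2343 and 2712 CPM in KO-labelled control, 2049, 2448 and 2830 CPM at 2 h and 3303, 3743 and 4190 CPM at 8 h. WT-labelled Ctss had 1688, 1881 and 2598 CPM in control, 1837, 1998 and 4022 CPM at 2 h and 2798, 3166 and 3934 CPM at 8 h. Both labels were separate from control at 8 h, with 1 WT-labelled library standing high at 2 h. Its log2 fold change at 8 h was 0.71 ± 0.15 (adjusted p = 5.12e-05) in KO-labelled and 0.74 ± 0.15 (adjusted p = 3.46e-05) in WT-labelled cells. With library totals alone it was -0.11 in KO-labelled and -0.044 in WT-labelled cells. Ctsb, the abundant cysteine protease cathepsin B, had 16730, 18090 and 20210 CPM in KO-labelled control, 19300, 19890 and 21510 CPM at 2 h and 20650, 22940 and 23940 CPM at 8 h. WT-labelled Ctsb had 16060, 17270 and 18670 CPM in control, 18030, 19100 and 21570 CPM at 2 h and 19390, 21090 and 23070 CPM at 8 h. The 8 h libraries were above all controls, with a log2 fold change of 0.33 ± 0.065 (adjusted p = 3.30e-05) in KO-labelled and 0.28 ± 0.065 (adjusted p = 2.75e-04) in WT-labelled cells, and of -0.50 in KO-labelled and -0.49 in WT-labelled cells with library totals alone. Ctsa, the carboxypeptidase that also protects the glycosidases Glb1 and Neu1, spanned 972 to 1462 CPM over the KO-labelled libraries and 960 to 1408 CPM over the WT-labelled libraries. At 8 h its log2 fold change was 0.25 ± 0.093 (adjusted p = 0.0163) in KO-labelled and 0.18 ± 0.093 (adjusted p = 0.0771) in WT-labelled cells; the one that passed had -0.58 with library totals alone. Ctsd, the main aspartic protease, was the protease that fell. Its levels were 6057, 6495 and 7429 CPM in KO-labelled control, 6078, 6564 and 6964 CPM at 2 h and 5531, 5673 and 6048 CPM at 8 h. WT-labelled Ctsd had 6052, 6395 and 6853 CPM in control, 6117, 6376 and 7012 CPM at 2 h and 5128, 5617 and 5849 CPM at 8 h. The 8 h libraries lay just under the controls of either label, with a log2 fold change of -0.19 ± 0.061 (adjusted p = 0.00561) in KO-labelled and -0.22 ± 0.061 (adjusted p = 0.00203) in WT-labelled cells.

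The other proteases did not pass the test against control at either time. With the library set as a term, described below, Ctsl passed at 2 h under both labels and at 8 h in KO-labelled cells, and Ctsk passed at 8 h under both labels. Ctsl, a cysteine protease abundant in macrophages, ranged widely within groups. It had 1284, 2434 and 3129 CPM in KO-labelled control, 2027, 2665 and 3362 CPM at 2 h and 1875, 2656 and 3443 CPM at 8 h. WT-labelled Ctsl had 1409, 1939 and 2427 CPM in control, 1448, 2256 and 2699 CPM at 2 h and 1581, 2137 and 2553 CPM at 8 h. The groups overlapped, and the log2 fold change at 8 h was 0.21 ± 0.21 (adjusted p = 0.375) in KO-labelled and 0.13 ± 0.21 (adjusted p = 0.582) in WT-labelled cells. Ctsk had 5.91, 11.6 and 16.1 CPM in KO-labelled control, 9.51, 12.0 and 15.8 CPM at 2 h and 12.0, 15.8 and 19.6 CPM at 8 h. WT-labelled Ctsk had 5.60, 10.9 and 13.1 CPM in control, 7.50, 11.8 and 24.7 CPM at 2 h and 10.7, 13.0 and 18.2 CPM at 8 h. Ctse had 0.656, 2.20 and 3.15 CPM in KO-labelled control, 1.36, 1.86 and 3.06 CPM at 2 h and 0.703, 1.86 and 2.47 CPM at 8 h. WT-labelled Ctse had 0.301, 2.05 and 2.83 CPM in control, 0.759, 2.27 and 5.62 CPM at 2 h and 0.922, 1.59 and 2.37 CPM at 8 h, near the limit of what these depths count. At 8 h the log2 fold change of Ctsk was 0.52 ± 0.25 (adjusted p = 0.0634) in KO-labelled and 0.45 ± 0.25 (adjusted p = 0.107) in WT-labelled cells and that of Ctse -0.23 ± 0.42 (adjusted p = 0.633) in KO-labelled and -0.16 ± 0.43 (adjusted p = 0.743) in WT-labelled cells, with standard errors wider than those of most members. Tpp1, a tripeptidyl peptidase, spanned 300 to 369.5 CPM over the KO-labelled libraries and 259 to 381.9 CPM over the WT-labelled libraries, with 0.026 ± 0.070 (adjusted p = 0.757) in KO-labelled and -0.041 ± 0.070 (adjusted p = 0.615) in WT-labelled cells at 8 h.

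Of the 8 glycosidases, 2 rose and 2 fell at 8 h in KO-labelled cells and 1 rose and 2 fell in WT-labelled cells, the rises of Gla and Glb1 being negative with library totals alone. Gla, the alpha-galactosidase deficient in Fabry disease, had 205, 227 and 256 CPM in KO-labelled control, 206, 237 and 263 CPM at 2 h and 304, 328 and 390.9 CPM at 8 h. WT-labelled Gla had 203, 210 and 234 CPM in control, 185, 220 and 243 CPM at 2 h and 238, 260 and 348 CPM at 8 h. All 8 h libraries stood above all controls of their label. This gave a log2 fold change of 0.57 ± 0.089 (adjusted p = 8.42e-07) in KO-labelled and 0.39 ± 0.089 (adjusted p = 1.87e-04) in WT-labelled cells, and with library totals alone -0.26 in KO-labelled and -0.39 in WT-labelled cells. Gusb, beta-glucuronidase, had 689, 748 and 868 CPM in KO-labelled control, 687, 748 and 866 CPM at 2 h and 541, 607 and 689 CPM at 8 h. WT-labelled Gusb had 651, 712 and 757 CPM in control, 659, 722 and 824 CPM at 2 h and 559, 603 and 663 CPM at 8 h. The 8 h libraries were below, by less than 1 CPM at the nearest, all controls in KO-labelled cells and overlapped them in WT-labelled cells, with -0.31 ± 0.075 (adjusted p = 3.76e-04) in KO-labelled and -0.22 ± 0.075 (adjusted p = 0.00872) in WT-labelled cells. Neu1, the lysosomal sialidase, had 108, 111 and 123 CPM in KO-labelled control, 85.7, 99.1 and 108 CPM at 2 h and 82.9, 95.2 and 99.4 CPM at 8 h. WT-labelled Neu1 had 101, 108 and 115 CPM in control, 87.3, 98.5 and 122 CPM at 2 h and 85.4, 99.4 and 116 CPM at 8 h. Its 8 h libraries were separate from control in KO-labelled cells. Neu1 had a log2 fold change of -0.21 ± 0.074 (adjusted p = 0.0246) in KO-labelled and -0.10 ± 0.074 (adjusted p = 0.313) in WT-labelled cells at 2 h, and -0.27 ± 0.074 (adjusted p = 0.00169) in KO-labelled and -0.10 ± 0.074 (adjusted p = 0.243) in WT-labelled cells at 8 h.

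Glb1, beta-galactosidase, spanned 108 to 183 CPM over the KO-labelled libraries and 105 to 177 CPM over the WT-labelled libraries. Its log2 fold change at 8 h was 0.25 ± 0.11 (adjusted p = 0.0309) in KO-labelled and 0.20 ± 0.11 (adjusted p = 0.0871) in WT-labelled cells, and the one that passed had -0.57 with library totals alone. Naglu, which cleaves heparan sulfate, spanned 96.5 to 151 CPM over the KO-labelled libraries and 83.2 to 161 CPM over the WT-labelled libraries and passed the test in WT-labelled cells at 8 h, where it fell. Its log2 fold change was -0.034 ± 0.11 (adjusted p = 0.796) in KO-labelled and -0.25 ± 0.11 (adjusted p = 0.0476) in WT-labelled cells. For Neu1, Glb1, Naglu and the other members called under 1 label, the difference in response between labels itself did not pass over all libraries. In set B alone that of Neu1 at 8 h passed in edgeR (-0.23, adjusted p = 0.0395). Gaa, which acts on glycogen, spanned 84.6 to 123 CPM over the KO-labelled libraries and 77.1 to 129 CPM over the WT-labelled libraries. Hexa, which acts on gangliosides, spanned 763 to 1165 CPM over the KO-labelled libraries and 750 to 1135 CPM over the WT-labelled libraries. Man2b1, an alpha-mannosidase, had mean levels of 521 ± 173 CPM at 8 h, against 473 ± 122 CPM in control, in KO-labelled cells, and of 481 ± 97.7 CPM at 8 h, against 466 ± 80.9 CPM in control, in WT-labelled cells (SD, n = 6 each). None of these 3 passed against control, and their log2 fold changes at 8 h lay between -0.047 (Hexa) and 0.14 (Man2b1).

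The genes for lipid handling split. Npc1 and Npc2 act one after the other in moving cholesterol out of the lysosome, Npc2 as the soluble carrier and Npc1 as the membrane protein that receives it, and their transcripts moved in opposite directions at 8 h under either scaling. Npc2 had a lowest, median and highest level of 1073, 1332 and 1428 CPM in KO-labelled control libraries, 1326, 1443 and 1543 CPM at 2 h and 2557, 2913 and 3098 CPM at 8 h. WT-labelled Npc2 had 885, 995 and 1190 CPM in control, 1013, 1188 and 1501 CPM at 2 h and 2193, 2498 and 2840 CPM at 8 h. Npc1 had a lowest, median and highest level of 247, 279 and 303 CPM in KO-labelled control libraries, 287, 300 and 310 CPM at 2 h and 159, 179 and 209 CPM at 8 h. WT-labelled Npc1 had 191, 299 and 319 CPM in control, 268, 289 and 314 CPM at 2 h and 152, 195 and 209 CPM at 8 h. For Npc2 every 8 h library was above every control of its label. For Npc1 every KO-labelled 8 h library was below every control, and in WT-labelled cells 1 control, at 191 CPM, lay among the 8 h values. At 8 h Npc2 had 1.16 ± 0.10 (adjusted p = 1.05e-12) in KO-labelled and 1.30 ± 0.10 (adjusted p = 5.74e-14) in WT-labelled cells, and Npc1 had -0.62 ± 0.092 (adjusted p = 3.56e-07) in KO-labelled and -0.57 ± 0.092 (adjusted p = 1.36e-06) in WT-labelled cells. At 2 h Npc2 had 0.17 ± 0.10 (adjusted p = 0.193) in KO-labelled and 0.28 ± 0.10 (adjusted p = 0.0181) in WT-labelled cells; the one that passed was -0.028 with library totals alone. Grn, progranulin, a secreted and lysosomal protein cut into granulins, had 2268, 2686 and 3016 CPM in KO-labelled control, 2545, 2711 and 3104 CPM at 2 h and 3493, 4360 and 4647 CPM at 8 h. WT-labelled Grn had 2284, 2435 and 2554 CPM in control, 2440, 2610 and 2734 CPM at 2 h and 3605, 3771 and 4185 CPM at 8 h. Its 8 h libraries were separate from control, with a log2 fold change of 0.67 ± 0.074 (adjusted p = 6.38e-10) in KO-labelled and 0.64 ± 0.074 (adjusted p = 1.75e-09) in WT-labelled cells, and of -0.15 in KO-labelled and -0.13 in WT-labelled cells with library totals alone.

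Lipa, the acid lipase that frees cholesterol and fatty acids from lipoproteins, had 1379, 1473 and 1627 CPM in KO-labelled control, 1237, 1571 and 1930 CPM at 2 h and 622, 1015 and 1436 CPM at 8 h. WT-labelled Lipa had 1361, 1469 and 1685 CPM in control, 1215, 1462 and 1891 CPM at 2 h and 652, 872 and 1345 CPM at 8 h. The 8 h libraries were below all controls in WT-labelled cells and overlapped them in KO-labelled cells, with a log2 fold change of -0.56 ± 0.21 (adjusted p = 0.0175) in KO-labelled and -0.64 ± 0.21 (adjusted p = 0.00677) in WT-labelled cells. Psap spanned 9091 to 16360 CPM over the KO-labelled libraries and 9055 to 14310 CPM over the WT-labelled libraries. Its log2 fold change at 8 h was 0.28 ± 0.11 (adjusted p = 0.0241) in KO-labelled and 0.19 ± 0.11 (adjusted p = 0.138) in WT-labelled cells, and the one that passed had -0.54 with library totals alone. Ppt1, a thioesterase for fatty acids on proteins, spanned 108 to 139 CPM over the KO-labelled libraries and 113 to 144 CPM over the WT-labelled libraries, with -0.11 ± 0.061 (adjusted p = 0.101) in KO-labelled and -0.19 ± 0.061 (adjusted p = 0.00644) in WT-labelled cells at 8 h. Smpd1 had 33.0, 36.7 and 47.4 CPM in KO-labelled control, 27.6, 34.0 and 37.9 CPM at 2 h and 33.0, 36.8 and 42.7 CPM at 8 h. WT-labelled Smpd1 had 33.1, 38.2 and 39.4 CPM in control, 28.2, 30.7 and 38.5 CPM at 2 h and 30.1, 32.6 and 36.6 CPM at 8 h. At 2 h the groups overlapped, and the log2 fold change was -0.24 ± 0.089 (adjusted p = 0.0338) in KO-labelled and -0.21 ± 0.089 (adjusted p = 0.0562) in WT-labelled cells. Asah1, acid ceramidase, spanned 302 to 412.4 CPM over the KO-labelled libraries and 291 to 431 CPM over the WT-labelled libraries and did not pass, with -0.007 ± 0.092 (adjusted p = 0.948) in KO-labelled and 0.039 ± 0.092 (adjusted p = 0.718) in WT-labelled cells at 8 h.

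Of the 5 membrane proteins, Lamp2 and Lamp1 rose at 8 h under both labels, Lamp1 with a negative sign when libraries were scaled by totals alone. Lamp2 had a lowest, median and highest level of 523, 619 and 740 CPM in KO-labelled control libraries, 643, 691 and 751 CPM at 2 h and 1210, 1354 and 1549 CPM at 8 h. WT-labelled Lamp2 had 519, 560 and 635 CPM in control, 580, 624 and 756 CPM at 2 h and 1099, 1178 and 1486 CPM at 8 h. Here too the 8 h libraries were clear of the controls. Lamp2 (chrX:38401357-38456454, minus strand) had a log2 fold change of 1.16 ± 0.088 (adjusted p = 7.92e-14) in KO-labelled and 1.11 ± 0.088 (adjusted p = 2.83e-13) in WT-labelled cells. Lamp1, a related protein of the same membrane, had 1386, 1762 and 1978 CPM in KO-labelled control, 1860, 1920 and 2072 CPM at 2 h and 1801, 2239 and 2378 CPM at 8 h. WT-labelled Lamp1 had 1434, 1626 and 1814 CPM in control, 1749, 1913 and 2271 CPM at 2 h and 1860, 2075 and 2192 CPM at 8 h. Its 8 h libraries were separate from control in WT-labelled cells, and 1 KO-labelled library at 1801 CPM lay among the controls. Lamp1 had a log2 fold change of 0.34 ± 0.082 (adjusted p = 3.77e-04) in KO-labelled and 0.33 ± 0.082 (adjusted p = 6.64e-04) in WT-labelled cells, and with library totals alone -0.48 in KO-labelled and -0.45 in WT-labelled cells.

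Mcoln1, the calcium channel TRPML1 of the lysosomal membrane, had 52.6, 63.0 and 79.1 CPM in KO-labelled control, 50.4, 59.7 and 67.3 CPM at 2 h and 58.4, 64.8 and 71.6 CPM at 8 h. WT-labelled Mcoln1 had 48.3, 66.1 and 77.8 CPM in control, 56.7, 61.4 and 82.2 CPM at 2 h and 61.7, 65.6 and 74.7 CPM at 8 h. Laptm5, a lysosomal membrane protein of blood cells, had 1321, 1490 and 1867 CPM in KO-labelled control, 1412, 1606 and 2064 CPM at 2 h and 1224, 1423 and 1806 CPM at 8 h. WT-labelled Laptm5 had 1283, 1411 and 1824 CPM in control, 1392, 1595 and 2031 CPM at 2 h and 1096, 1370 and 1704 CPM at 8 h. Cd63, a tetraspanin of late endosomes, had 470, 529 and 681 CPM in KO-labelled control, 508, 602 and 702 CPM at 2 h and 506, 595 and 786 CPM at 8 h. WT-labelled Cd63 had 508, 536 and 631 CPM in control, 543, 614 and 776 CPM at 2 h and 547, 611 and 738 CPM at 8 h. None of these 3 passed at either time, and their groups overlapped. With the library set as a term Cd63 passed in WT-labelled cells at 2 h and under both labels at 8 h. At 8 h the log2 fold change of Mcoln1 was 0.001 ± 0.11 (adjusted p = 0.992) in KO-labelled and 0.049 ± 0.11 (adjusted p = 0.703) in WT-labelled cells.

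The 5 subunits of the proton pump differed in their timing. Atp6v1b2, the B2 subunit of the V1 sector (chr8:69088646-69113711, plus strand), did not pass at 2 h and rose at 8 h on the TMM scale, and with library totals alone was lower at 2 h (-0.30 in KO-labelled and -0.34 in WT-labelled cells). Atp6v1b2 had a lowest, median and highest level of 630, 671 and 723 CPM in KO-labelled control libraries, 576, 664 and 785 CPM at 2 h and 1025, 1295 and 1654 CPM at 8 h. WT-labelled Atp6v1b2 had 622, 656 and 738 CPM in control, 588, 632 and 777 CPM at 2 h and 1031, 1287 and 1662 CPM at 8 h. The 8 h levels fell in tiers by library set, with no library near the median. In KO-labelled cells they were 1541 to 1654 CPM in set A and 1025 to 1048 CPM in set B. In WT-labelled cells they were 1481 to 1662 CPM in set A and 1031 to 1093 CPM in set B. At 8 h the lowest library of either label exceeded the highest control, with a log2 fold change of 0.98 ± 0.13 (adjusted p = 3.54e-08) in KO-labelled and 0.99 ± 0.13 (adjusted p = 3.16e-08) in WT-labelled cells. With library totals alone it kept its sign but did not pass (0.15, adjusted p = 0.224 in KO-labelled and 0.20, adjusted p = 0.0991 in WT-labelled cells). Atp6v1a, the catalytic A subunit, rose at 2 h and did not pass against control at 8 h on the TMM scale; with library totals alone it did not pass at 2 h (0.084 in KO-labelled and 0.080 in WT-labelled cells) and was lower at 8 h (-0.83 in KO-labelled and -0.78 in WT-labelled cells). It had 671, 713 and 928 CPM in KO-labelled control, 787, 979 and 1253 CPM at 2 h and 624, 752 and 931 CPM at 8 h. WT-labelled Atp6v1a had 665, 729 and 860 CPM in control, 806, 928 and 1242 CPM at 2 h and 620, 681 and 897 CPM at 8 h. The groups overlapped, and the log2 fold change at 2 h was 0.39 ± 0.14 (adjusted p = 0.0300) in KO-labelled and 0.39 ± 0.14 (adjusted p = 0.0269) in WT-labelled cells; at 8 h against 2 h it fell by 0.39 on the log2 scale in both labels (adjusted p = 0.0160 in each). Atp6v1a also followed the sets at 2 h, with 1130 to 1253 CPM in set A and 787 to 827 CPM in set B of KO-labelled cells. In WT-labelled cells these were 1022 to 1242 and 806 to 834 CPM.

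Atp6v1h, the regulatory H subunit, had 140, 147 and 153 CPM in KO-labelled control, 168, 184 and 203 CPM at 2 h and 152, 183 and 213 CPM at 8 h. WT-labelled Atp6v1h had 140, 157 and 182 CPM in control, 157, 199 and 202 CPM at 2 h and 182, 193 and 208 CPM at 8 h. Its 2 h libraries were separate from control in KO-labelled cells. At 2 h it had 0.35 ± 0.076 (adjusted p = 3.82e-04) in KO-labelled and 0.28 ± 0.076 (adjusted p = 0.00316) in WT-labelled cells. The WT-labelled value was -0.022 with library totals alone. At 8 h it was 0.31 ± 0.076 (adjusted p = 4.23e-04) in KO-labelled and 0.30 ± 0.076 (adjusted p = 8.30e-04) in WT-labelled cells, and with library totals alone -0.51 in KO-labelled and -0.47 in WT-labelled cells. Atp6v0d1, the widely expressed d subunit of the membrane sector, had 205, 218 and 251 CPM in KO-labelled control, 209, 228 and 250 CPM at 2 h and 225, 233 and 267 CPM at 8 h. WT-labelled Atp6v0d1 had 212, 222 and 233 CPM in control, 227, 241 and 252 CPM at 2 h and 220, 247 and 278 CPM at 8 h. At 8 h it had 0.12 ± 0.063 (adjusted p = 0.0903) in KO-labelled and 0.18 ± 0.063 (adjusted p = 0.0126) in WT-labelled cells; the one that passed was -0.59 with library totals alone.

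**Figure D2:**
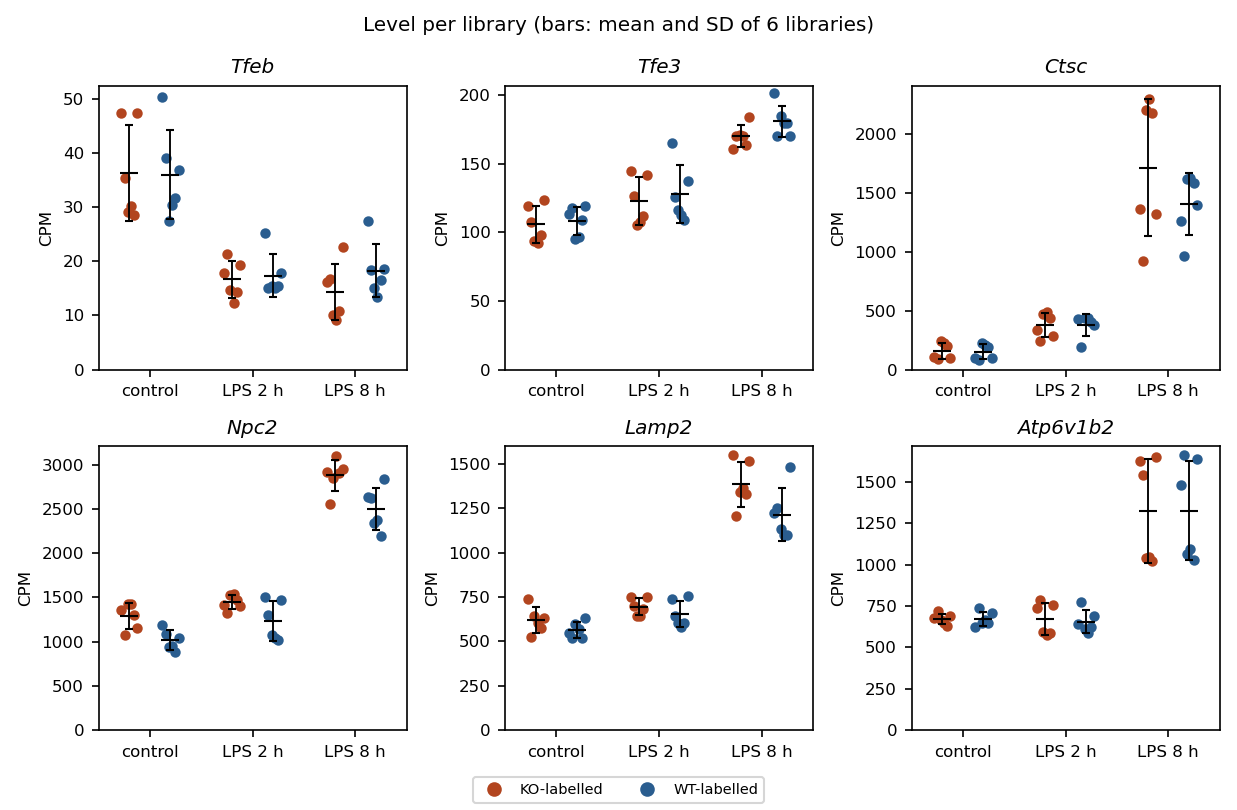
Level in CPM (y axis, from 0) in every library of 6 members by time of LPS (x axis), KO-labelled in red left of WT-labelled in blue; the black bar is the mean and SD of 6 libraries. At 8 h all points of Tfe3, Ctsc, Npc2, Lamp2 and Atp6v1b2 lie above the controls of their label, those of Ctsc from 926 CPM up, while Tfeb has fallen at 2 h; with library totals alone the sign of Tfe3 turns.

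Atp6v0d2, the d subunit used in osteoclasts and fused macrophages, had separate levels in the unlabelled library sets. In control it had 325 to 388.2 CPM in set A and 135 to 139 CPM in set B of the KO-labelled libraries, and 300 to 345 and 159 to 162 CPM in those of the WT-labelled. At 2 h set A stood at 500 to 524 and set B at 111 to 124 CPM in KO-labelled cells, and at 435 to 468 and 126 to 140 CPM in WT-labelled cells. At 8 h set A stood at 237 to 266 and set B at 53.8 to 57.2 CPM in KO-labelled cells, and at 202 to 250 and 44.4 to 50.6 CPM in WT-labelled cells. At 2 h every LPS library was thus above its controls in set A and below them in set B, with log2 fold changes of 0.51 ± 0.10 (set A) and -0.21 ± 0.051 (set B) for KO-labelled cells and 0.49 ± 0.10 and -0.24 ± 0.050 for WT-labelled cells. At 8 h it was lower in both sets. Over all 36 libraries it did not pass at 8 h, with -0.69 ± 0.53 (adjusted p = 0.244) in KO-labelled and -0.81 ± 0.53 (adjusted p = 0.176) in WT-labelled cells. With the set as a term in the model it passed, with -0.90 ± 0.15 (adjusted p = 1.57e-06) in KO-labelled and -1.15 ± 0.15 (adjusted p = 2.20e-08) in WT-labelled cells. The sets were read from these same libraries, so a term for them narrows the standard errors partly by construction. Its p-values are therefore likely too small.

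Lipa had 1485 to 1627 CPM in set A and 1379 to 1461 CPM in set B of KO-labelled control, and 1413 to 1685 and 1361 to 1516 CPM in WT-labelled control. At 8 h it had 1387 to 1436 CPM in set A and 622 to 644 CPM in set B of KO-labelled cells, and 1066 to 1345 and 652 to 678 CPM in WT-labelled cells. The log2 fold change at 8 h was -0.16 ± 0.11 in set A and -1.18 ± 0.047 in set B for KO-labelled cells, and -0.29 ± 0.11 and -1.11 ± 0.047 for WT-labelled cells; set A of the KO-labelled cells did not pass (adjusted p = 0.203). Hexa, Man2b1, Atp6v0d2, Laptm5 and Cd63 were wholly higher in set A than in set B in all 6 groups, and Ctsl was wholly higher in set B. Since the sets were read from the same libraries, these separations are descriptions and were not tested. Osteoclast markers, of which 7 or 8 of 8 had counts in each group, differed between the sets in 5 of the 6 groups. At 2 h they summed to 155 to 196 CPM in set A and 76.0 to 85.3 CPM in set B of KO-labelled cells, and to 147 to 178 and 91.1 to 99.4 CPM in WT-labelled cells. At 8 h they summed to 94.7 to 123.5 CPM in set A and 57.3 to 63.8 CPM in set B of KO-labelled cells, but in WT-labelled cells the 72.2 to 98.6 CPM of set A overlapped the 83.8 to 88.4 CPM of set B. Atp6v0d2 was still separate there. The osteoclast list includes Acp5, which rose with LPS as given below, so the sums after LPS partly carry that rise. The osteoclast gene Calcr had no count in control or in KO-labelled cells at 2 h and at most 0.654 CPM elsewhere. Neutrophil markers, with counts for 7 or 8 of 8 in each group, went the other way, with 50.1 to 69.4 CPM in set A and 138 to 148 CPM in set B at 2 h in KO-labelled cells and 35.0 to 57.1 and 211 to 232 CPM in WT-labelled cells. Their part in the separation was not tested, and in bulk RNA fewer cells of a type and less RNA per cell cannot be told apart. All 59 member calls against control passed again, in the same direction, with the set as a term. The sets being read from the same libraries, the model with this term has less scatter by construction, and its calls are descriptive. That model also made 18 further calls, bringing the members called to 10 in KO-labelled and 15 in WT-labelled cells at 2 h (beside 43.3% and 46.5% of all genes) and to 26 under either label at 8 h (beside 76.4% of all genes in KO-labelled and 75.8% in WT-labelled cells). The further calls were of Ctsb, Ctsl, Lamp2, Glb1, Smpd1, Cd63 and Tfe3 at 2 h and of Ctsa, Ctsk, Ctsl, Glb1, Atp6v0d2 and Cd63 at 8 h, in 1 or both labels. Apart from Smpd1 and Atp6v0d2, which were lower, all were higher on the TMM scale and negative with library totals alone.

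**Figure D3:**
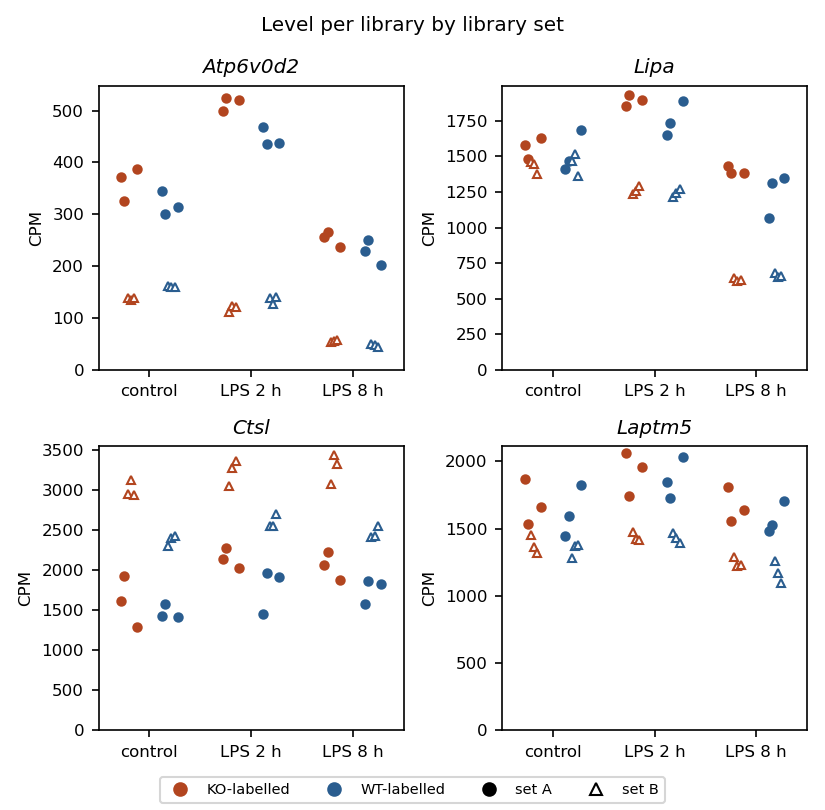
Level in CPM (y axis, from 0) in every library of Atp6v0d2, Lipa, Ctsl and Laptm5 by time of LPS (x axis), KO-labelled in red left of WT-labelled in blue, circles for set A and open triangles for set B. Atp6v0d2 at 2 h stands at 435 CPM or more in set A and at 140 CPM or less in set B, and Ctsl is higher in set B at each time.

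The response was also set beside the promoter motif. At 8 h the log2 fold changes of the 10 genes with TCACGTG spanned -0.19 to 0.57 in KO-labelled cells (median 0.13; 4 rose, 1 fell) and -0.25 to 0.39 in WT-labelled cells (median 0.11; 3 rose, 2 fell). Those of the 21 genes without it spanned -1.35 to 3.43 in KO-labelled cells (median 0.20; 8 rose, 4 fell) and -0.98 to 3.21 in WT-labelled cells (median 0.13; 7 rose, 4 fell). Tfeb, Ctsc, Npc2, Ctsz and Lamp2 are in the second class, while Gla holds the 8-base form printed above and had the widest change of the first. With library totals alone each rise in the first class had a negative sign. The classes differ in size and were not tested against each other.

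**Figure D4:**
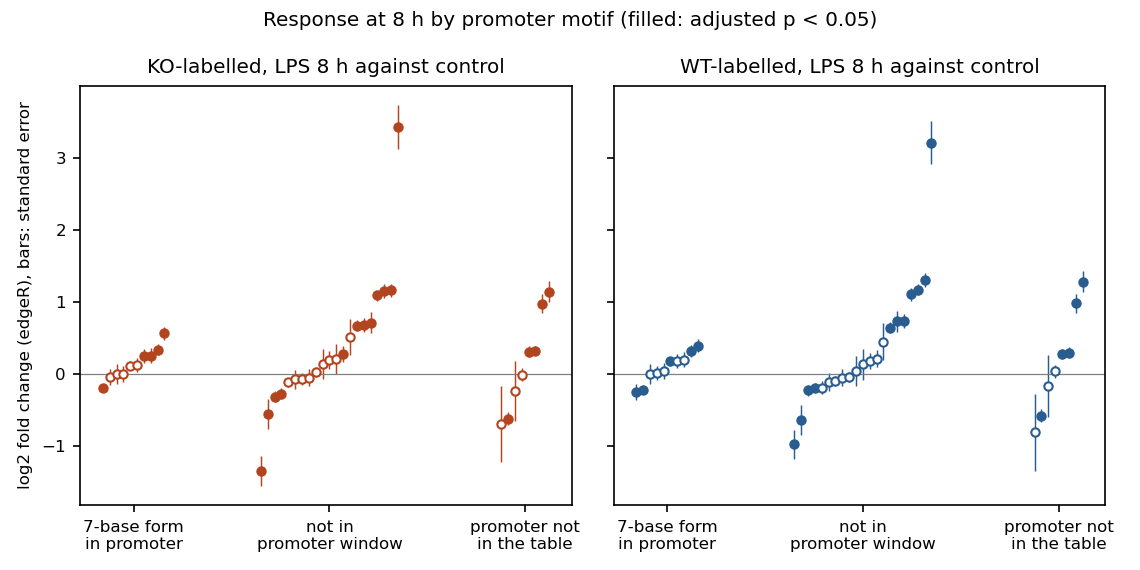
Log2 fold change at 8 h of LPS against control (y axis, edgeR on the TMM scale, bars are standard errors) of the 39 genes in 3 classes (x axis): the 7-base motif form in the promoter, not in the promoter window, and no promoter in the table; KO-labelled left, WT-labelled right, filled where the adjusted p is below 0.05. The 10 genes with the motif lie between -0.25 and 0.57, and with library totals alone their rises are negative.

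No member passed the edgeR test between the genotype labels when all libraries were fitted together. In edgeR over all libraries, 0 of 39 were called in KO-labelled against WT-labelled cells in control (0.147% of all genes), at 2 h (0.0232%) and at 8 h (0.100%), with 2, 1 and 5 members at an unadjusted p below 0.05. The interaction of label and LPS was called for 0 members at 2 h (0% of all genes) and 0 at 8 h (0%), with 0 at an unadjusted p below 0.05 in either. DESeq2 called 1 member, Npc2 in control (2.20% of all genes to which it gave an adjusted p), and 0 in the other 4 comparisons. Differences between labels ran from -0.10 (Atp6v1h) to 0.35 (Npc2) in control, from -0.30 (Ctse) to 0.30 (Ctsl) at 2 h and from -0.36 (Tfeb) to 0.34 (Ctsl) at 8 h on the log2 scale, and the widest standard error was that of Atp6v0d2, 0.53 in each. Npc2 in control had 1073, 1332 and 1428 CPM in KO-labelled libraries, against 885, 995 and 1190 CPM in WT-labelled libraries. The ranges overlapped, and the difference was 0.35 ± 0.10 (adjusted p = 0.172); it passed in DESeq2 (0.36, adjusted p = 0.0174) and without the KO-labelled control library numbered 2 (0.40, adjusted p = 0.0494). Gla at 8 h had 304, 328 and 390.9 CPM in KO-labelled libraries, against 238, 260 and 348 CPM in WT-labelled libraries, a difference of 0.28 ± 0.089 (adjusted p = 0.209).

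The comparison of labels was also made within each set. In set A, with 3 libraries a group, edgeR called 0 members in control (0.0548% of all genes), 0 at 2 h (0.0704%) and 0 at 8 h (0.0469%), with 0 at an unadjusted p below 0.05 in each. In set B it called 7 in control (6 higher in KO-labelled cells), 6 at 2 h (5 higher) and 16 at 8 h (11 higher), beside 10.5%, 10.5% and 31.5% of all genes. Npc2 in control had 1304 to 1428 CPM in KO-labelled libraries of set B, against 885 to 947 CPM in WT-labelled libraries of set B, a log2 difference of 0.60 ± 0.051 (adjusted p = 1.88e-09). Its ranges overlapped in set A, with 1073 to 1360 CPM in KO-labelled libraries of set A, against 1043 to 1190 CPM in WT-labelled libraries of set A. Ctss in control had 2354 to 2712 CPM in KO-labelled libraries of set B, against 1688 to 1888 CPM in WT-labelled libraries of set B, a log2 difference of 0.50 ± 0.060 (adjusted p = 1.19e-06). It too overlapped in set A, with 1771 to 2333 CPM in KO-labelled libraries of set A, against 1766 to 2598 CPM in WT-labelled libraries of set A. Ctsl was higher in KO-labelled cells of set B at all times, by 0.35 ± 0.054, 0.32 ± 0.053 and 0.41 ± 0.054 in control, at 2 h and at 8 h, beside 0.13 ± 0.14, 0.28 ± 0.14 and 0.23 ± 0.14 in set A. With the set as a term its difference at 8 h over all libraries was 0.32 ± 0.084 (adjusted p = 0.0504). Tfeb at 8 h had 9.18 to 10.8 CPM in KO-labelled libraries of set B, against 13.4 to 16.6 CPM in WT-labelled libraries of set B, a log2 difference of -0.58 ± 0.11 (adjusted p = 1.45e-04). In set A Tfeb overlapped, with 16.2 to 22.5 CPM in KO-labelled libraries of set A, against 18.4 to 27.4 CPM in WT-labelled libraries of set A. Ctsc at 8 h had 2182 to 2300 CPM in KO-labelled libraries of set B, against 1584 to 1626 CPM in WT-labelled libraries of set B, a log2 difference of 0.46 ± 0.062 (adjusted p = 2.24e-06). Its set A ranges overlapped, with 926 to 1363 CPM in KO-labelled libraries of set A, against 962 to 1400 CPM in WT-labelled libraries of set A. The difference between the sets was not tested. The libraries of set B differ little from each other, and marker sums also differed by label there. In control, neutrophil markers summed to 70.2 to 81.4 CPM under the KO label and to 127 to 142 CPM under the WT label. Stromal cell markers summed to 17.9 to 22.1 CPM under the KO label and to 39.8 to 48.6 CPM under the WT label, and erythroid and megakaryocyte markers to 114 to 123 CPM under the KO label and to 169 to 172 CPM under the WT label. Macrophage markers summed to 14060 to 15710 CPM under the KO label and to 15960 to 16770 CPM under the WT label, and the osteoclast, dendritic cell and B cell lists were also lower under the KO label without overlap. Whether these libraries are separate cultures is not stated, and the part of the markers was not tested.

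**Figure D5:**
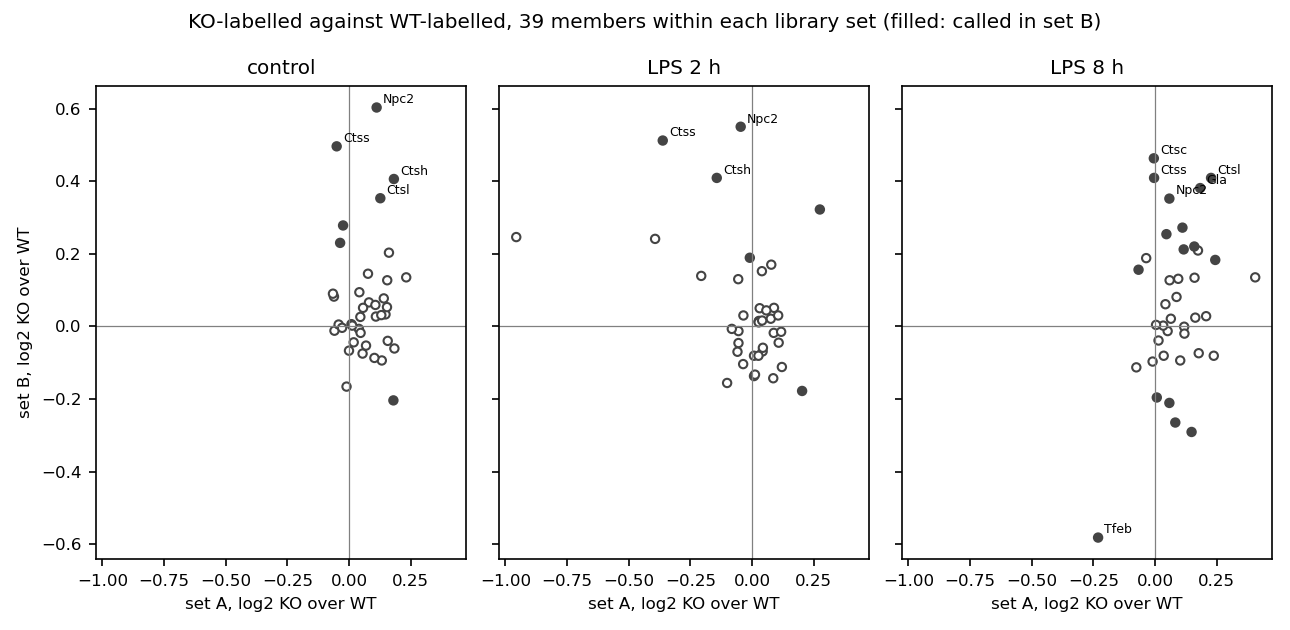
Log2 difference of KO-labelled over WT-labelled cells for the 39 genes in set A (x axis) and in set B (y axis), in control, at 2 h and at 8 h of LPS; filled points passed in set B, and those beyond 0.35 in set B are named. Npc2, Ctss and Ctsh stand at 0.60, 0.50 and 0.41 in set B in control, and Tfeb at -0.58 at 8 h, whereas none of the 39 passed in set A.

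Other genes of the lysosomal system changed in both directions at 8 h on the TMM scale. Of 29 other acid hydrolases and cofactors tested, 12 rose and 8 fell under either label; with library totals alone 6 of the 12 rises in KO-labelled and 5 of the 12 in WT-labelled cells had a negative sign. Acp5, the tartrate-resistant acid phosphatase, had 25.2 to 47.1 CPM at 8 h, against 0.871 to 6.30 CPM in control, in KO-labelled cells. WT-labelled Acp5 had 20.8 to 55.9 CPM at 8 h, against 1.32 to 4.75 CPM in control. Sgsh, heparan sulfamidase, had 2.00 to 7.26 CPM at 8 h, against 31.2 to 57.6 CPM in control, in KO-labelled cells. WT-labelled Sgsh had 2.17 to 6.06 CPM at 8 h, against 29.2 to 49.8 CPM in control. Both genes were clear of the control range. The log2 fold change of Acp5 was 3.36 ± 0.34 in KO-labelled and 3.64 ± 0.34 in WT-labelled cells, and that of Sgsh -3.16 ± 0.29 in KO-labelled and -3.39 ± 0.30 in WT-labelled cells.

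Of 26 other membrane proteins, 12 rose and 10 fell under either label, with 6 (KO-labelled) and 7 (WT-labelled) of the 12 rises negative when scaled by totals alone. Slc15a3, a carrier of peptides and histidine, had a log2 fold change of 3.26 ± 0.13 in KO-labelled and 3.48 ± 0.13 in WT-labelled cells. The cation channel gene Tpcn1 had -2.57 ± 0.21 in KO-labelled and -2.33 ± 0.21 in WT-labelled cells. Of 14 other subunits of the proton pump, 8 rose and 2 fell in KO-labelled cells and 9 rose and 2 fell in WT-labelled cells, 3 of the 8 and 4 of the 9 rises being negative with totals alone. Atp6v1d had 1.74 ± 0.11 in KO-labelled and 1.50 ± 0.11 in WT-labelled cells, and Atp6v0a1 -0.55 ± 0.095 in KO-labelled and -0.60 ± 0.095 in WT-labelled cells.

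Of 24 genes for sorting to lysosomes, 9 rose and 6 fell in KO-labelled cells and 13 rose and 6 fell in WT-labelled cells, 7 of the 9 and 11 of the 13 rises being negative with totals alone. M6pr, the cation-dependent mannose 6-phosphate receptor, had 1.52 ± 0.12 in KO-labelled and 1.36 ± 0.12 in WT-labelled cells, and the adaptor Gga2 -2.15 ± 0.096 in KO-labelled and -2.0 ± 0.096 in WT-labelled cells. Of 30 partners of the MiT/TFE factors and nutrient sensors of mTORC1, 8 rose and 12 fell in KO-labelled cells and 6 rose and 10 fell in WT-labelled cells, 5 of the 8 and 3 of the 6 rises being negative with totals alone. Tfec, the macrophage relative of Tfeb and Tfe3, averaged 21.9 CPM in control, 243 CPM at 2 h and 67.6 CPM at 8 h in KO-labelled cells. In WT-labelled cells Tfec averaged 21.6 CPM in control, 283 CPM at 2 h and 89.4 CPM at 8 h, so its highest mean was at 2 h under both labels. Sesn1, an inhibitor of mTORC1, had -3.86 ± 0.32 in KO-labelled and -3.04 ± 0.30 in WT-labelled cells at 8 h.

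Of 8 cystatins and intracellular serpins, inhibitors of cathepsins and granule proteases, 5 rose and 3 fell under either label, 2 of the 5 rises being negative with totals alone in each. Serpina3g had 568 to 1031 CPM at 8 h, against 0.158 to 1.74 CPM in control, in KO-labelled cells, and 409 to 1093 CPM at 8 h, against 0 to 0.943 CPM in control, in WT-labelled cells. Serpinb1a had -1.04 ± 0.34 in KO-labelled and -1.85 ± 0.36 in WT-labelled cells. Of 42 autophagy genes, 17 rose and 17 fell in KO-labelled cells and 16 rose and 13 fell in WT-labelled cells, 9 of the 17 and 7 of the 16 rises being negative with totals alone. The autophagy receptor Sqstm1 averaged 583 CPM in control, 3044 CPM at 2 h and 1676 CPM at 8 h in KO-labelled cells, and 575 CPM in control, 3362 CPM at 2 h and 1955 CPM at 8 h in WT-labelled cells. Atg16l2 had -1.79 ± 0.19 in KO-labelled and -1.86 ± 0.19 in WT-labelled cells. The share of all genes called at 8 h, given above, is the background for these counts, and the lists were not tested against it.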

How the data were processed

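Gene counts in 36 libraries were deposited as whole-number counts made by HTSeq on mm10, per the submitters' processing notes. The sources used here do not name the aligner, annotation, strand setting or versions. RNA was extracted with a DNase step and sequenced on an Illumina NovaSeq, per the labels' protocols. Identifiers were matched to GENCODE M21, and coordinates are mm10. Genes passing filterByExpr over the 6 groups (12957) were scaled by TMM and fitted over all 36 libraries with edgeR 4.0.16 (quasi-likelihood F-test, R 4.3.3), with Benjamini-Hochberg adjustment over all tested genes and a threshold of 0.05. Errors on fold changes are standard errors, taken from the F statistic. CPM are counts divided by the TMM-scaled library size. DESeq2 1.42.0 and the other alternatives are given in the closing section. The fit was also run on simulated counts without library sets, which cannot show how the sets affect it. Members could all be named; full group values were given for the largest called rises and falls at 2 h and 8 h, for named factors, proteases, membrane proteins and pump subunits, and from each wider list for the called gene with the largest rise and fall at 8 h in WT-labelled cells. The members and lists were chosen with earlier results of these data known. Each library total was at least 8953489 counts.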

Additional observations from a re-analysis of the deposited data

Results flagged for a closer look

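In 17 of 234 groups of 6 libraries, 1 library stood apart from the other 5 by more than Dixon's 95% critical share of the whole range; chance alone would mark about 11.7. Of the 17 values, 9 came from the WT-labelled libraries numbered 1. These included Ctss, the invariant-chain protease, with 2598 CPM in the WT-labelled control library numbered 1, with 1688 to 1924 CPM in the other 5, and with 4022 CPM in the WT-labelled LPS 2 h library numbered 1, with 1837 to 2300 CPM in the other 5. Tfeb had 25.2 CPM in the WT-labelled LPS 2 h library numbered 1, with 15.0 to 17.8 CPM in the other 5, and 27.4 CPM in the WT-labelled LPS 8 h library numbered 1, with 13.4 to 18.6 CPM in the other 5. Npc1 had 191 CPM in the WT-labelled control library numbered 1, with 276 to 319 CPM in the other 5. The tetraspanin Cd63 had 631 CPM in the WT-labelled control library numbered 1, with 508 to 544 CPM in the other 5. Ctse had 5.62 CPM in the WT-labelled LPS 2 h library numbered 1, with 0.759 to 2.58 CPM in the other 5, Tpp1 had 266 CPM in the WT-labelled LPS 8 h library numbered 1, with 323 to 348 CPM in the other 5, and the pump subunit Atp6v1h had 157 CPM in the WT-labelled LPS 2 h library numbered 1, with 190 to 202 CPM in the other 5.

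The WT-labelled LPS 2 h library numbered 2 was low for the most responsive protease and for the member highest per kilobase. In that library Ctsc had 192 CPM, with 380.2 to 441 CPM in the other 5. Psap had 10410 CPM there, with 12910 to 13910 CPM in the other 5. Lamp1 had 1801 CPM in the KO-labelled LPS 8 h library numbered 2, with 2169 to 2378 CPM in the other 5. Glb1 and Atp6v0d1 were high in the same library: Glb1 had 157 CPM in the KO-labelled control library numbered 1, with 108 to 125 CPM in the other 5, and Atp6v0d1 had 251 CPM in the KO-labelled control library numbered 1, with 205 to 221 CPM in the other 5. The WT-labelled libraries numbered 6 held the rest. Ctsh had 285 CPM in the WT-labelled LPS 8 h library numbered 6, with 241 to 255 CPM in the other 5, Gaa had 114 CPM in the WT-labelled control library numbered 6, with 86.1 to 95.5 CPM in the other 5, and Naglu had 161 CPM in the WT-labelled LPS 2 h library numbered 6, with 116 to 124 CPM in the other 5.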

How the results depend on the processing

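No paired analysis, such as a fit with the library number as a block, was run. The labels carry no replicate numbers and name no shared animal or culture. The numbers used here follow accession order; libraries of one number fell in the same set in all 6 groups, which the labels do not explain, and the set was used as a term instead. Of the 59 member calls against control, the same direction passed again for 59 with the library set as a term, 58 with DESeq2, 58 in set B alone, 57 with the size factors of DESeq2, 56 without the 4 libraries richest in muscle markers, 53 without the 6 libraries with BMDM in their genotype label, 53 with only the compared groups in the model, 52 with no filter on low counts, 48 in set A alone and 29 with library totals alone, where 22 reversed. The sets were read from the same libraries, so the repeated calls with the set as a term carry little weight. Leaving out 1 library at a time gave 7 to 11 called members at 2 h and 20 to 21 at 8 h in WT-labelled cells, 5 to 9 and 19 to 23 in KO-labelled cells, 15 to 17 (KO-labelled) and 16 to 18 (WT-labelled) between 8 h and 2 h, 0 to 1 between labels in control, and 0 in the other comparisons of labels and in the interactions. The share of all genes called was not recorded for these fits. With library totals alone, 17, 34 and 33 members passed in KO-labelled cells at 2 h, at 8 h and between the times (1, 5 and 6 higher), beside 56.1%, 85.6% and 76.6% of all genes, and 19, 34 and 33 in WT-labelled cells (1, 5 and 6 higher), beside 58.8%, 85.2% and 73.7%. DESeq2 called 1 member between labels in control. At 2 h in WT-labelled cells 15 members passed with the set as a term, 14 in set A alone and 15 in set B alone, beside 46.5%, 38.4% and 50.8% of all genes. Set B alone also gave 15 in KO-labelled cells at 2 h (48.0% of all genes), 30 (KO-labelled, 72.2%) and 26 (WT-labelled, 70.5%) between 8 h and 2 h, 7, 6 and 16 between labels in control, at 2 h and at 8 h (10.5%, 10.5% and 31.5%), and 7 of 39 interactions at 8 h, beside 16.6% of all genes. These interactions were those of Ctsc, Ctsz, Npc1, Npc2, Neu1, Tfeb and Atp6v0d2. Set A alone gave 0 interactions at 8 h.

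With library totals alone the log2 fold change took a negative sign at 8 h in KO-labelled cells, at -0.71 for Atp6v0d1, -0.51 for Atp6v1h, -0.64 for Cd63, -0.58 for Ctsa, -0.50 for Ctsb, -0.60 for Ctsl, -0.11 for Ctss, -0.70 for Gaa, -0.26 for Gla, -0.57 for Glb1, -0.15 for Grn, -0.48 for Lamp1, -0.70 for Man2b1, -0.83 for Mcoln1, -0.54 for Psap, -0.14 for Tfe3 and -0.80 for Tpp1, and in WT-labelled cells, at -0.74 for Asah1, -0.59 for Atp6v0d1, -0.47 for Atp6v1h, -0.57 for Cd63, -0.59 for Ctsa, -0.49 for Ctsb, -0.63 for Ctsl, -0.044 for Ctss, -0.75 for Gaa, -0.39 for Gla, -0.58 for Glb1, -0.13 for Grn, -0.45 for Lamp1, -0.74 for Man2b1, -0.73 for Mcoln1, -0.59 for Psap and -0.032 for Tfe3. At 2 h it did so in KO-labelled cells, at -0.22 for Asah1, -0.24 for Atp6v0d1, -0.20 for Ctsa, -0.14 for Ctsb, -0.27 for Gla, -0.24 for Grn, -0.30 for Hexa and -0.19 for Tpp1, and in WT-labelled cells, at -0.19 for Asah1, -0.20 for Atp6v0d1, -0.022 for Atp6v1h, -0.24 for Ctsa, -0.15 for Ctsb, -0.30 for Ctsd, -0.29 for Gla, -0.22 for Grn, -0.25 for Gusb, -0.28 for Hexa, -0.045 for Lamp1, -0.22 for Naglu, -0.27 for Npc1, -0.028 for Npc2, -0.075 for Tfe3 and -0.21 for Tpp1. The whole table shifts down under this scaling, by the medians of all genes given above. Turns are listed, here and for set B, only where the member passed in the full data or in the other setting. Turns that passed in neither, such as that of Ctsk at 8 h under both labels with totals alone, are left out. In set B alone the sign at 2 h turned in KO-labelled cells, at -0.21 for Atp6v0d2, -0.14 for Gla and -0.18 for Lipa, and in WT-labelled cells, at -0.24 for Atp6v0d2, -0.17 for Gla and -0.22 for Lipa, none of which was called in the full data. The cause was not tested. Depth limits mainly Ctse, whose highest library held 5.62 CPM.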
